A study of Homo sapiens with 2 samples.

Results

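The 52 genes of mitosis and chromosome segregation described here were taken by symbol from the table of 23608 gene rows, and each was found in 1 row of its own. They were compared between 1 RNA sequencing library and 1 ribosome profiling library of SW13 cells, a human cell line established from an adrenal adenocarcinoma. The cells of both libraries had been transfected with 5 µg of plasmids carrying Mhrt779 and Hotair, long non-coding RNAs of the mouse, and were collected 48 hours later. No untransfected cells were among the libraries, so every value below belongs to cells that carry these plasmids. Total RNA gave the first library, and RNA fragments prepared as protected by ribosomes gave the second. Each library is scaled to its own size. A ratio between them therefore compares genes with each other and is not the part of an mRNA that was on ribosomes. Whether both came from the same culture is not given in the sources used here. With 1 library per assay no value has a replicate error, and the only error available is that of the authors' model. In a bulk culture, more cells in mitosis and more RNA per mitotic cell cannot be told apart.

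Cells enter mitosis through the active kinase CDK1 bound to cyclin B, which with the Polo and Aurora kinases drives chromosome condensation and spindle assembly. Kinetochores then attach chromosomes to microtubules, the spindle checkpoint holds back the anaphase-promoting complex until attachment is complete, and the loss of securin and cyclin B starts chromosome separation. Many of the genes are transcribed together late in the cell cycle, through the CHR (cell cycle genes homology region), a short promoter element that the DREAM and MuvB complexes bind, and through CCAAT boxes that the factor NF-Y binds. A dividing line such as SW13 makes these mRNAs in every cycle.

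The label of the cells was checked against marker genes. All 11 adrenal cortex markers, among them NR5A1, STAR and CYP17A1, were listed at 0 in both libraries. The epithelial keratins KRT8 and KRT18 had 41.9 and 57.2 FPKM in RNA sequencing, while KRT19, EPCAM and CDH1 were listed at 0. The 6 fibroblast markers stayed at or below 0.699 FPKM in both libraries. The defining markers of the labelled tissue of origin were thus at 0, and the cells are called by the name of the line.

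Promoters show what these genes share beyond the list of names. RefSeq promoter windows (GRCh38.p14), from 250 bases before to 50 bases after the annotated start, were matched for 47 of the 52 genes. No window was used for BIRC5, AURKA, BUB3, TTK and TPX2. For genes with several starts a match at any of them counted. The CHR was searched as TTTGAA or TTCGAA and the CCAAT box as CCAAT, on both strands and with any overlap allowed. A CHR match was found for 36 of the 47 genes (76.6%), against 17.5% of 15842 protein-coding genes. A CCAAT match was also found for 36 (76.6%), against 42.1%, and 27 genes held both (57.4%), against 8.95%. Over all 27305 genes with a window, non-coding ones included, the shares were 19.5% for the CHR and 39.7% for the CCAAT box. The 8 stretches below, the 100 bases before the start, show this arrangement in genes of mitotic entry, anaphase control and the spindle whose ratios are described further on. SKA2 is shown as a gene with CCAAT boxes and no CHR match. Capitals mark TTTGAA or its reverse complement TTCAAA, and CCAAT or its reverse complement ATTGG, where they lie whole within the stretch.
PLK1 (chr16:23678789-23678888, plus strand): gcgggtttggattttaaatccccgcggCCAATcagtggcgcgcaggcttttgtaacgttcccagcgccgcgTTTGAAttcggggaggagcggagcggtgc
CCNB2 (chr15:59105046-59105145, plus strand): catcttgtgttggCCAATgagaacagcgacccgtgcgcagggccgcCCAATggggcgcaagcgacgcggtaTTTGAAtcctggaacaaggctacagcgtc
CDC20 (chr1:43358881-43358980, plus strand): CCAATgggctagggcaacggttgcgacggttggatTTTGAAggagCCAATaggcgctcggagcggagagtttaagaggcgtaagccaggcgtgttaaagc
PRC1 (chr15:90994536-90994635, minus strand): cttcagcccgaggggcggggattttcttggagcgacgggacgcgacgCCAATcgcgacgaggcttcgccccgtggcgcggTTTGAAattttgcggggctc
CKS1B (chr1:154974581-154974680, plus strand): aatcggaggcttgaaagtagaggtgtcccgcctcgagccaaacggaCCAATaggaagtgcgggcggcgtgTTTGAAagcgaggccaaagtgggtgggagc
CKS2 (chr9:89311095-89311194, plus strand): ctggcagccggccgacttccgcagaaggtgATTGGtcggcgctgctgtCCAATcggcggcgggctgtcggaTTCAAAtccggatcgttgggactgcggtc
HMMR (chr5:163460532-163460631, plus strand): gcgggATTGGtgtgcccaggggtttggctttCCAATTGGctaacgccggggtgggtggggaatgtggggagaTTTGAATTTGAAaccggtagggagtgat
SKA2 (chr17:59155187-59155286, minus strand): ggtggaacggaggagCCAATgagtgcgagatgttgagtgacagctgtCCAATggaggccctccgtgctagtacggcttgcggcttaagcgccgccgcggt

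In PLK1, CCNB2 and CKS2 the first base of the CHR match lay 29 bases before the start, and in CKS1B 30 bases before it. In HMMR 2 matches stood side by side, 28 and 22 bases before the start. In CDC20 the nearest match lay 65 bases before the start, between CCAAT boxes at 100 and 55 bases, and another lay farther out. Across the 47 genes the CHR matches gathered close to the start. Of them, 31 (66.0%) had a match whose first base lay within 50 bases of the start, against 5.23% of protein-coding genes, a window chosen after the positions were seen. CCAAT matches lay farther out. They began 70 to 51 bases before the start in 23 genes (48.9%), against 9.95% of protein-coding genes. This bin was picked as the highest, and it was the highest for protein-coding genes too. Over the wider stretch from 100 to 40 bases before the start, also not set in advance, 30 genes (63.8%) had a match, against 21.6%. A match describes letters only and says nothing about binding in these cells.

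**Figure D1:**
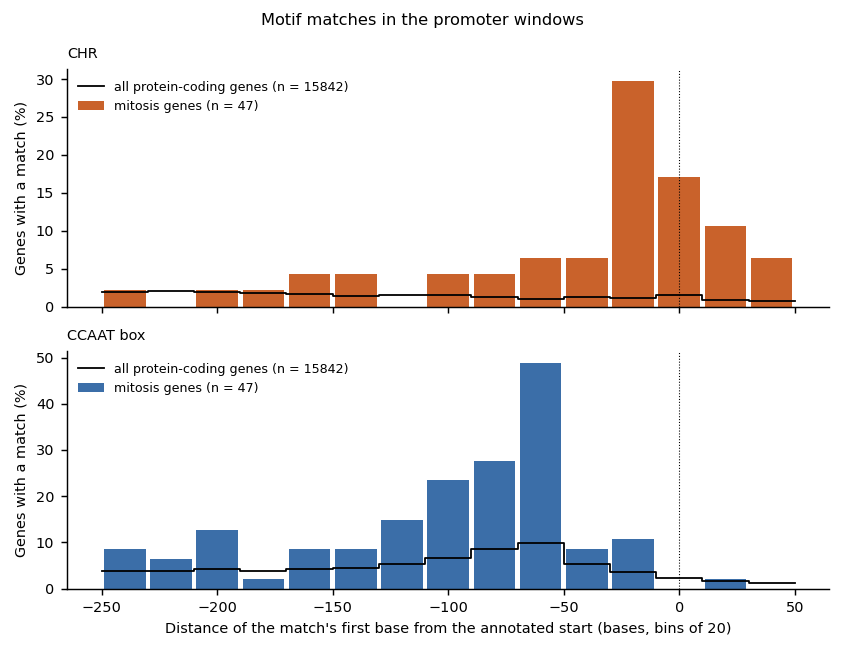
Share of genes with a match to the CHR (upper panel) or the CCAAT box (lower panel) by distance of its first base from the annotated start, in bins of 20 bases. Bars are the 47 mitosis genes with a promoter window and the black line is 15842 protein-coding genes; the highest CHR bar, 29.8%, covers 30 to 11 bases before the start, and the highest CCAAT bar, 48.9%, covers 70 to 51 bases before it.

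Genes with and without a CHR match were then set side by side by the ratio defined below. The 26 tested genes with a CHR match had a median centred log2 ratio of 0.21 and the 8 without one had 0.30. Among the other lists, 46.4% of 110 further mitosis genes and 9.62% of 52 DNA replication genes held a CHR match, and 57.3% and 55.8% held a CCAAT match.

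Levels are given as FPKM, fragments scaled to the length of the transcript and to the size of the library. In ribosome profiling this level also depends on the coding share, the coding part of the transcript's length. Footprint levels of genes with unlike coding shares are therefore not strictly comparable. The RNA level is the FPKM in RNA sequencing and the footprint level that in ribosome profiling. The ratio is log2((footprint level + 1)/(RNA level + 1)), centred on its median over tested rows, and a fold is relative to that median, called the typical gene. A row was tested with a mean of at least 10 FPKM over both libraries, which 2734 rows passed. Of the 52 mitosis genes 39 passed. Of these 29 had at least 10 FPKM in both libraries, 9 in ribosome profiling alone and 1, BIRC5, in RNA sequencing alone, so the filter itself favoured genes high in ribosome profiling.

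All 52 genes were detected in RNA sequencing, from 2.44 FPKM for CENPE to 48.3 FPKM for KPNA2 with a median of 13.4 FPKM. In ribosome profiling they ranged from SKA1, listed at 0, to 135 FPKM for KPNA2, with a median of 18.1 FPKM. The FPKM value was higher in ribosome profiling for 44 of the 52. As deposited, the typical gene was itself 1.31-fold higher there, and 32 of the 52 lay above it. Of the 39 tested genes, STMN1, DLGAP5, NDC80, CKS2 and KPNA2 were 2-fold or more above the typical gene. These 5 are 12.8% of the 39, against 13.1% of all tested rows and 10.1% of tested protein-coding rows. BIRC5, 1 gene or 2.56%, was 2-fold or more below it, against 19.7% of all tested rows and 14.5% of protein-coding rows. Their median centred log2 ratio was 0.23, or 1.17-fold, beside 0 for all tested rows and 0.040 for the 2258 protein-coding ones. The middle 50% of the mitosis genes spanned 0.58 on the log2 scale, against 1.10 for protein-coding rows. A narrow span was not particular to them, since the middle 50% of 26 tested DNA replication genes ran from -0.12 to 0.37. The share above is near its background. Nearest to the line of 2-fold were KPNA2, at 2.11-fold above, and MAD2L1, at 1.86-fold above. Without centring 7 were above and 1 below, and all tested rows then split into 23.6% above and 14.2% below. The side of the typical gene on which ANLN, AURKA, CCNA2, CDCA3, CDCA8, CDK1, CENPW, CKAP5, CKS1B, NCAPD2 and TTK lay, all below it here, depends on the centre, since a filter of 1 FPKM, which lowers the centre for every gene, puts them above it. CENPF lay above it here and below it with a pseudocount of 5 FPKM.

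The same description without the strict filter covers every gene. With a mean of at least 1 FPKM all 52 entered, and each was set against the median of 10853 rows. There 12 were 2-fold or more above (23.1%, against 15.5% of all rows) and 3 that far below (5.77%, against 19.6%). Their median was 0.73 and 45 of 52 lay above the median row. The 3 low genes were BIRC5, SKA2 and SKA1, the last counted through the pseudocount alone. The centre of these rows was -0.16, against 0.39 under the strict filter, which raises every ratio alike. Against the typical gene of the strict filter, 6 of the 52 were 2-fold or more above and 4 that far below. The larger count above thus comes from the lower centre, and no level of a mitosis gene changed.

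**Figure D2:**
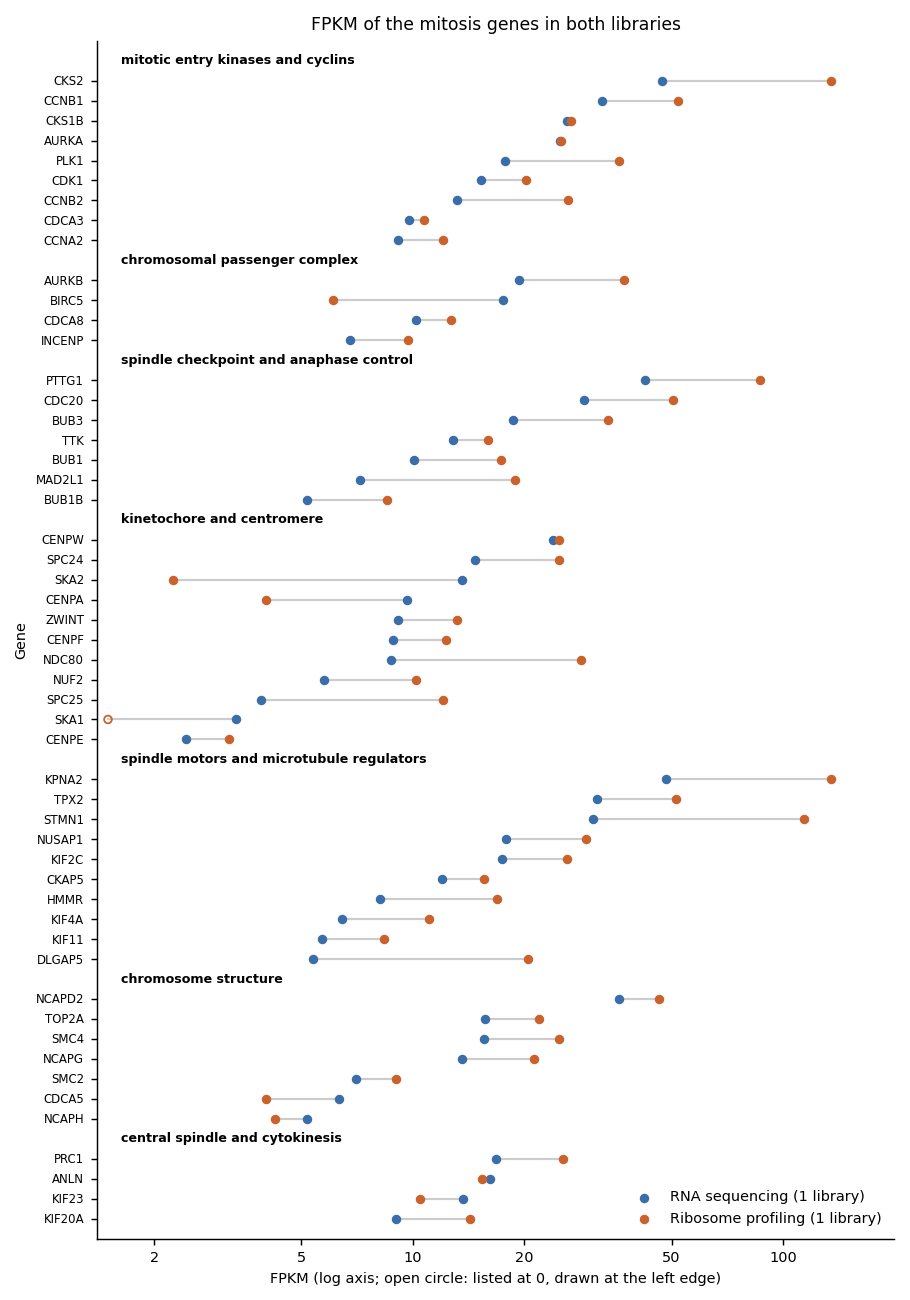
FPKM of each of the 52 mitosis genes on a log axis, in RNA sequencing (blue) and ribosome profiling (orange), 1 library each, grouped by role. The orange point lies to the right of the blue one in 44 genes; BIRC5, CENPA, SKA2, NCAPH, CDCA5, KIF23 and ANLN show the reverse, and SKA1 is listed at 0 in ribosome profiling (open circle at the left edge).

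Of the cyclins and kinases of mitotic entry all but CKS2 lay within 2-fold of the typical gene. CDK1, the kinase that starts mitosis, had an RNA level of 15.3 FPKM and a footprint level of 20.2 FPKM. Its partner CCNB1 had 32.4 and 51.9 FPKM, CCNB2 had 13.2 and 26.3 FPKM, and CCNA2, which acts from S phase on, had 9.13 and 12.1 FPKM. None of these 4 was 2-fold from the typical gene, with folds from 1.01-fold below for CCNA2 to 1.47-fold above for CCNB2. The Polo kinase PLK1 had 17.8 and 36.1 FPKM, 1.51-fold above. The spindle pole kinase AURKA had 25.03 and 25.1 FPKM, 1.304-fold below. AURKAPS1, a copy of AURKA with a row of its own, had 9.55 and 12.96 FPKM, and reads may have been divided between them. CDCA3, an F-box protein of mitotic entry, had 9.73 and 10.7 FPKM.

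The small subunits that bind cyclin-dependent kinases went apart. CKS1B had an RNA level of 26.1 FPKM and a footprint level of 26.7 FPKM, 1.28-fold below the typical gene. CKS2, its close relative, had 47.2 and 135 FPKM, 2.15-fold above. CKS2 exceeded CKS1B 1.804-fold by RNA level and 5.03-fold by footprint level. The log2 ratios of the authors' deposited table differed by 1.48 (CKS2 minus CKS1B). Taking the errors as independent, that difference had a standard error of 1.22, and its 95% interval ran between -0.90 and 3.86. The interval thus held 0. So did those of the other paralogs by the authors' deposited table, -2.13 to 2.77 for CCNB2 minus CCNB1 and -0.92 to 2.79 for AURKB minus AURKA.

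The chromosomal passenger complex, which corrects faulty kinetochore attachments, held the lowest tested gene. AURKB, its kinase, had an RNA level of 19.4 FPKM and a footprint level of 37.1 FPKM. CDCA8, also called borealin, had 10.2 and 12.7 FPKM, and the scaffold INCENP had 6.75 and 9.69 FPKM. BIRC5, or survivin, had 17.5 and 6.08 FPKM, 3.42-fold below the typical gene. It lies on chromosome 17 from 76210277 to 76221716 in hg19, and its locus overlaps no other row. The 4 subunits spanned 2.87-fold in RNA sequencing and 6.11-fold in ribosome profiling, where AURKB was highest and BIRC5 lowest. In the authors' deposited table AURKB minus BIRC5 was 2.47 in log2 ratio, with a 95% interval from 0.32 to 4.61, while the intervals of CDCA8 minus BIRC5 and INCENP minus BIRC5 reached from -0.48 to 4.16 and from -0.26 to 4.35. Of 9 such pairs computed, chosen with the values known and not adjusted for their number, the interval for AURKB and BIRC5 alone excluded 0. The coding share was 86.05% for AURKB and 17.09% for BIRC5, and its part in this difference was not tested.

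Genes of the spindle checkpoint and of anaphase control stood together above the typical gene, apart from TTK. The securin PTTG1 was the most abundant, at an RNA level of 42.4 FPKM and a footprint level of 86.4 FPKM, 1.54-fold above. Its near-identical copies PTTG2 and PTTG3P had 16.3 and 32.3 FPKM and 4.08 and 29.2 FPKM, and summed with them PTTG1 was 1.79-fold above. CDC20, the activator of the anaphase-promoting complex, had 29 and 50.5 FPKM, 1.31-fold above. MAD2L1, the checkpoint protein that holds CDC20, had 7.19 and 18.9 FPKM, 1.86-fold above. The checkpoint proteins BUB1, BUB3 and BUB1B had 10.1 and 17.3, 18.6 and 33.7, and 5.17 and 8.53 FPKM, and lay 1.18-fold to 1.35-fold above. The kinase TTK, also called MPS1, had 12.8 and 16.0 FPKM, 1.07-fold below. None of these 7 reached 2-fold in either direction.

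Kinetochore genes lay on both sides of the typical gene, and 6 of the 11 did not pass the filter. NDC80, which gives the microtubule-binding complex its name, had an RNA level of 8.72 FPKM and a footprint level of 28.5 FPKM, 2.32-fold above the typical gene. Its partners NUF2, SPC24 and SPC25 had 5.74 and 10.2, 14.7 and 24.9, and 3.88 and 12.1 FPKM. All 4 subunits lay above the typical gene, from 1.26-fold for SPC24 to 2.32-fold, and they spanned 3.79-fold in RNA sequencing and 2.80-fold in ribosome profiling. The order changed between the assays: SPC24 was highest in RNA sequencing and NDC80 in ribosome profiling. No interval was computed for NDC80 minus SPC24, whose coding shares were 88.7% and 25.5%. In the authors' deposited table NDC80 minus NUF2 had a 95% interval from -1.64 to 3.40, which holds 0.

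SKA2, a small subunit of the complex that keeps kinetochores on shrinking microtubules, had an RNA level of 13.6 FPKM and a footprint level of 2.25 FPKM, 5.89-fold below the typical gene. SKA1, of the same complex, had 3.34 FPKM and was listed at 0. SKA2 lies on chromosome 17 from 57187308 to 57232800 in hg19, and its locus also holds the rows MIR301A and MIR454, both listed at 0. CENPA, the histone variant that marks centromeres, had 9.65 and 4.02 FPKM, 2.78-fold below. None of these 3 passed the filter of 10 FPKM. The inner kinetochore protein CENPW had 23.9 and 24.8 FPKM and lay 1.26-fold below. CENPF, the scaffold protein ZWINT and the motor CENPE had 8.85 and 12.3, 9.13 and 13.1, and 2.44 and 3.19 FPKM, within 1.08-fold of the typical gene.

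The group of spindle motors and microtubule regulators, into which the import receptor KPNA2 was also put, held 3 of the 5 highest tested mitosis genes. They are 37.5% of its 8 tested genes, against 13.1% of all tested rows at 2-fold or more above. The groups were drawn up with results known. STMN1, or stathmin, which destabilises microtubules, had an RNA level of 30.6 FPKM and a footprint level of 114 FPKM, 2.77-fold above the typical gene. KPNA2, a nuclear import receptor that binds spindle factors, had 48.3 and 135 FPKM, 2.11-fold above. DLGAP5, or HURP, which stabilises kinetochore fibres, had 5.37 and 20.5 FPKM, 2.57-fold above. STMN1, KPNA2 and CKS2 exceeded 10 FPKM in both libraries, while NDC80 and DLGAP5 did so in ribosome profiling alone. A gene that passes in this way must have the higher FPKM in ribosome profiling, but need not lie above the typical gene. CCNA2, with 9.13 and 12.1 FPKM, passed so and lay 1.01-fold below it. TPX2, which activates AURKA, had 31.4 and 51.5 FPKM, and NUSAP1 had 17.8 and 29.4 FPKM, each within 1.24-fold of the typical gene. HMMR, a spindle and hyaluronan-binding protein, had 8.17 and 16.9 FPKM, 1.49-fold above, and the microtubule polymerase CKAP5 had 12.0 and 15.5 FPKM, 1.03-fold below. Of the motors, KIF2C had 17.4 and 26.2 FPKM, KIF11 had 5.69 and 8.34 FPKM and KIF4A had 6.45 and 11.1 FPKM, from 1.07-fold to 1.24-fold above.

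All 7 genes of chromosome structure lay within 2-fold of the typical gene. Among the subunits of condensin I, which compacts mitotic chromosomes, NCAPD2 was highest at an RNA level of 36.1 FPKM and a footprint level of 46.2 FPKM. SMC4 and NCAPG had 15.5 and 24.8 and 13.5 and 21.2 FPKM, SMC2 had 7.01 and 8.99 FPKM, and NCAPH was lowest at 5.17 and 4.23 FPKM. These 5 subunits of 1 complex spanned 6.99-fold in RNA sequencing and 10.9-fold in ribosome profiling, with NCAPD2 highest and NCAPH lowest in both. TOP2A, the topoisomerase that untangles sister chromatids, had 15.7 and 21.97 FPKM, 1.05-fold above. CDCA5, or sororin, which protects cohesion, had 6.31 and 4.01 FPKM, 1.91-fold below, just short of 2-fold.

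The 4 genes of the central spindle and cytokinesis went both ways without reaching 2-fold. PRC1, which bundles antiparallel microtubules, had an RNA level of 16.7 FPKM and a footprint level of 25.5 FPKM, and the motor KIF20A had 8.99 and 14.3 FPKM, 1.14-fold and 1.17-fold above. KIF23, the motor of centralspindlin, had 13.7 and 10.5 FPKM, 1.68-fold below, and anillin, ANLN, had 16.1 and 15.3 FPKM, 1.37-fold below.

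None of the 52 genes was called significant in the authors' deposited table, against 1.30% of its 4849 rows with the status OK. There 48 of the 52 had that status, and BUB1B, CENPE, NCAPH and SKA1 were not tested. Of the 48, 4 had in the authors' deposited table an unadjusted p-value under 0.05 (8.33%, against 14.2% of rows). These were SKA2 with a log2 ratio of -2.60, a standard error of 1.04 and q = 0.209, DLGAP5 with 1.93, 0.87 and q = 0.271, STMN1 with 1.89, 0.92 and q = 0.321, and NDC80 with 1.71, 0.86 and q = 0.347. BIRC5 had -1.53 with a standard error of 0.81 and q = 0.373 in the authors' deposited table. Over the members these standard errors ran from 0.60 to 1.16 with a median of 0.86, and many of the differences between members are smaller than that.

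**Figure D3:**
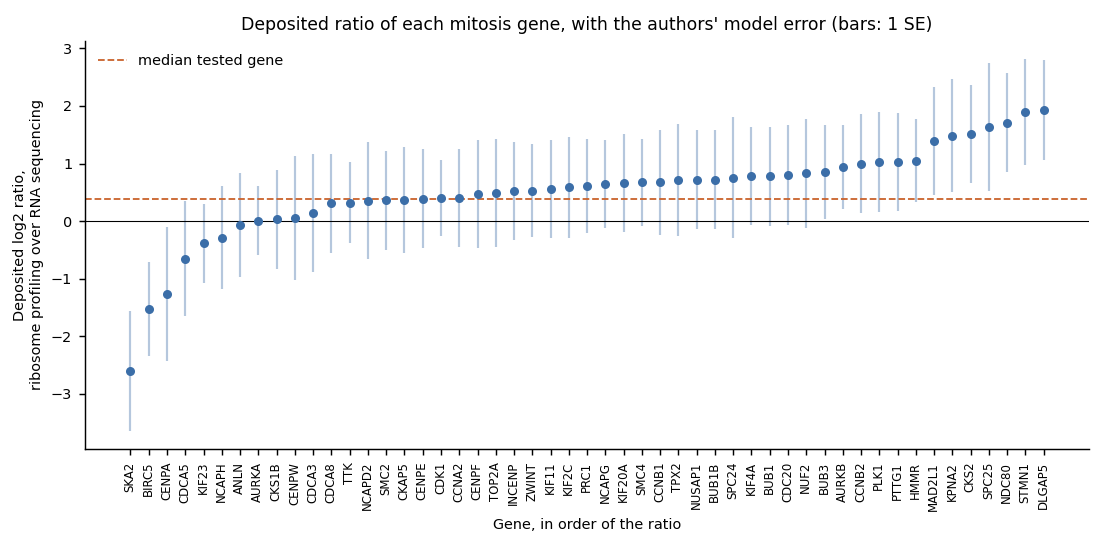
Log2 ratio of footprint level over RNA level from the authors' deposited table for 51 mitosis genes in ascending order, with bars of 1 standard error of the authors' model; SKA1, listed at 0 in ribosome profiling, has no finite ratio. The dashed line marks the median tested gene at 0.39, computed with a pseudocount of 1 FPKM that the deposited ratios lack. With a pseudocount of 0.1 FPKM that median was 0.41. The bars of 39 genes hold the line. Those of SKA2, BIRC5, CENPA, CDCA5 and KIF23 lie below it and those of DLGAP5, STMN1, NDC80, SPC25, CKS2, KPNA2 and MAD2L1 above it.

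How many reads stand behind these values was estimated from the low values of the table. For genes with 1 annotated transcript over 2000 bases, a step was fitted so that FPKM times kilobases fell closest to its whole multiples. The best step was 0.590 in RNA sequencing and 0.919 in ribosome profiling. Within 0.1 of a step of a whole multiple lay 52.7% of 256 genes and 53.7% of 177 genes, against 20% for evenly spread values. The 20% holds for a step set in advance. These steps were fitted on the same genes, so part of the excess may come from the fit. Multiples of a step 2 times as large, 1.18 and 1.84, took in 38.3% and 52.0%, so in ribosome profiling the larger step fits nearly as many genes and the step counts there may be 2 times too high. Whether 1 step is a read or a fraction of a pair is not given in the sources used here, so the counts below are approximate and carry no interval. Counted in these steps, with the mean length of their annotated transcripts, the mitosis genes had a median of 53.4 steps in RNA sequencing and 54.4 in ribosome profiling. KPNA2 rested on 190 and 341 steps, STMN1 on 68.8 and 164, and NCAPD2 on 340 and 279. BIRC5 rested on 77.1 and 17.2 steps, CENPA on 22.5 and 6.01, SKA2 on 39.5 and 4.19, and SPC25 on 8.90 and 17.8. On either step the low ratios of SKA2 and CENPA rest on few counts in ribosome profiling, and the high ratios of KPNA2, STMN1 and CKS2, with 49.0 and 89.7 steps, on more.

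Ribosomes cover the coding part of an mRNA, whereas FPKM divides by the whole transcript, so the coding share was set beside the ratio. It was taken from GENCODE release 29 transcripts with a RefSeq mRNA identifier and averaged per gene. In the 39 tested mitosis genes the median share was 68.3%, against 58.2% over 2127 protein-coding genes. BIRC5, the lowest tested gene, had a coding share of 17.1%, and SKA2, SKA1 and CENPA had 24.5%, 26.3% and 27.6%. MAD2L1 had the smallest share, 11.3%, and lay 1.86-fold above the typical gene, and STMN1 and CKS2 had 37.6% and 38.7%. Across the 39 genes the Spearman correlation of share and ratio was 0.18, and without BIRC5 it was 0.12. Across the 2127 genes it was 0.096. With the share of the transcript of longest coding part, the correlation was 0.14 across the 39 genes and 0.086 across the 2127. These are correlations across genes of the same 2 libraries, given as a description. By class of share, the median ratio of the mitosis genes was -0.44 under 25% (BIRC5 and MAD2L1 alone), -0.015 from 25% to 50% (10 genes), 0.22 from 50% to 75% (11 genes) and 0.29 above (16 genes). Over all protein-coding genes the medians of these classes were -0.13, -0.055, 0.089 and 0.11. The part of transcript structure in these ratios was not tested.

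**Figure D4:**
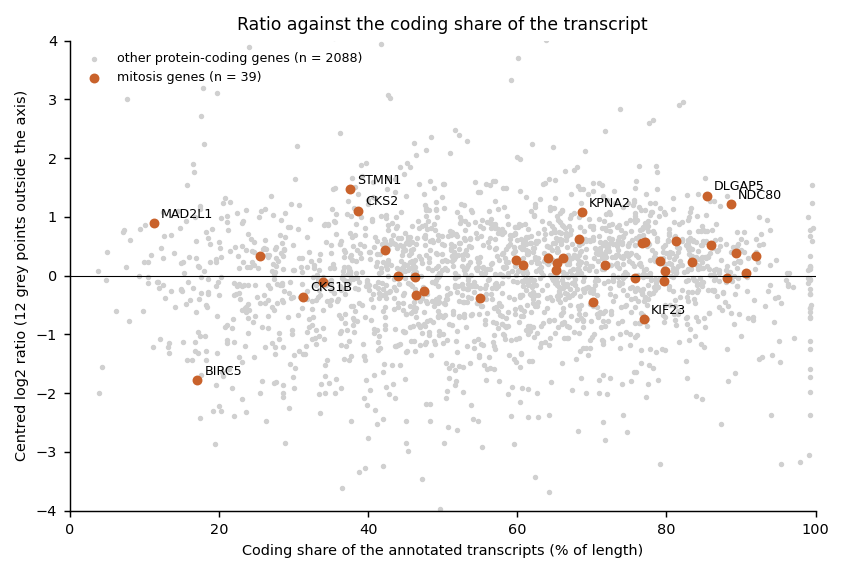
Centred log2 ratio of footprint level over RNA level against the coding share of the annotated transcripts, in percent, for 39 tested mitosis genes (orange) and 2088 other protein-coding genes (grey). BIRC5, at a share of 17.1%, lies lowest of the orange points, while MAD2L1, at 11.3%, lies above 0.

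The mitosis genes were then set beside other genes of the pathway and beside the genes of S phase. A list of 138 further mitosis genes had 136 rows, of which 34 passed the filter. Of these 34, 0 were 2-fold or more above the typical gene, against 13.1% of all tested rows, and 10 (29.4%) that far below, against 19.7%. Their median was -0.38, and 0.0057 without centring, with the middle 50% from -1.13 to 0.097. MYBL2, which joins the MuvB complex to activate mitotic genes, was lowest, with 18.8 FPKM of RNA and 5.17 FPKM of footprints. FOXM1, the transcription factor that follows it at these promoters, had 18.9 and 5.73 FPKM. It was picked for naming with its values known. The cohesin regulator PDS5A was highest, with 46.0 and 106 FPKM. The ubiquitin-conjugating enzymes of the anaphase-promoting complex went apart, UBE2C with 59.3 and 84.6 FPKM and UBE2S with 66.1 and 36.7 FPKM.

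The 60 DNA replication genes all had rows, and 26 passed. Of these, RPA3 was 2-fold or more above (3.85%, against 13.1% of all tested rows) and CDT1 that far below (3.85%, against 19.7%). The median was 0.054. MCM7, TYMS and MCM4, of the replicative helicase and of thymidylate synthesis, had 57.0 and 133, 32.7 and 76.5, and 20.6 and 41.4 FPKM. RPA3, of the single-strand binding complex, had 2.79 and 22.4 FPKM, and the licensing factor CDT1 had 17.3 and 10.1 FPKM. The lists were chosen with results known, and the difference between them was not tested.

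**Figure D5:**
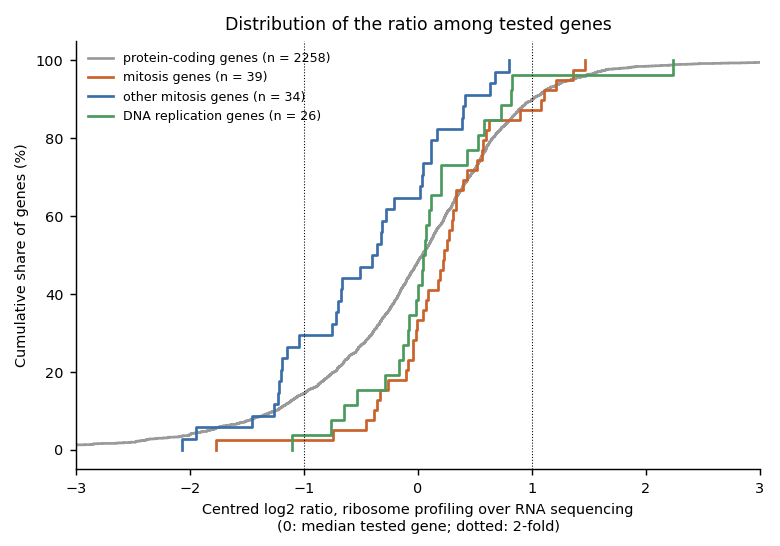
Cumulative share of tested genes by centred log2 ratio of footprint level over RNA level, for 39 mitosis genes (orange), 34 other mitosis genes (blue), 26 DNA replication genes (green) and 2258 protein-coding genes (grey), with dotted lines at 2-fold. The orange curve starts at BIRC5 and has 1 of 39 genes (2.56%) left of the lower dotted line, where the blue curve has 10 of 34 (29.4%).

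Some rows share their locus with other genes, which bears on how reads were assigned. The locus of 14 of the 52 genes overlapped at least 1 other row. SMC4 holds the row MIR16-2, with no RNA level above 0 and a footprint level of 1290 FPKM, and CKAP5 holds SNORD67, listed at 0 and at 6331 FPKM. The locus of STMN1 holds MIR3917, with an RNA level of 842 FPKM and a footprint level listed at 0, and that of NCAPD2 holds SCARNA10, with 141 FPKM and listed at 0. CCNA2 overlaps EXOSC9, KIF20A overlaps CDC23, and NCAPG overlaps LCORL, whose values ranged from 3.09 to 9.20 FPKM. Whether reads of these rows entered the values of the mitosis genes was not tested.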

How the data were processed

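The authors deposited 1 table with an FPKM value per gene and library, per the file headers, and the authors' own log2 ratio, test statistic, p-value and q-value. The submitters' processing notes list hg19, mm10, bedtools 2.16.1, TopHat2 2.0.8b, SAMtools 0.1.18 and, last, Bowtie2 2.0.0.6, without saying what each was used for. The program that wrote the table is not given in the sources used here. Libraries were read from both ends at 50 nt, per the labels' protocols.

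With Python 3.11.15, pandas 2.3.3 and scipy 1.17.1, ratios were computed with a pseudocount of 1 FPKM, which understates the ratio of low genes, on rows with a mean of at least 10 FPKM whose status was neither FAIL nor HIDATA. They were centred by 0.39, the median of the log2 ratio over 2734 rows. Gene types came from RefSeq symbols and synonyms, which matched 22665 of 23608 rows. A two-sided normal p from the test statistic came within 0.001 of the deposited p-value in 100% of status OK rows, so dividing the size of a deposited log2 ratio by that of its statistic gives its standard error. Since each assay had 1 library, only the deposited p-values are given. The members and gene lists were chosen with earlier results of these data known. Every member is named, and from other lists the 3 of highest mean FPKM and the highest and lowest ratio. The ratio and step computations were tested on simulated data. Gene coordinates are those of the table, counted from 1.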

Additional observations from a re-analysis of the deposited data

How the results depend on the processing

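No paired analysis was possible because each assay had 1 library. The 10 planned settings each changed 1 choice. A median or single ratio was taken to have moved when it shifted by more than 1.5-fold, and a count when it changed by more than 1.5 times. The median of the tested mitosis genes was 0.23 and ranged from 0.17, with a pseudocount of 5 FPKM, to 0.85 with no filter. Every one of the settings kept it above 0, and no gene past 2-fold turned its direction. In at least 1 setting 12 genes changed sign, mostly where the centre was lowered for every gene. So did the medians of mitotic entry, the passenger complex, cytokinesis, chromosome structure (-0.22 with a filter of 30 FPKM, which left NCAPD2 alone) and the other mitosis genes (0.0048 with a filter of 1 FPKM, 0.13 with none and 0.0057 without centring).

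With no filter, which brings in many rows near 0 and so lowers the centre, the medians were 0.66 for mitotic entry, 0.66 for the passenger complex, 1.06 for the checkpoint, 0.71 for the kinetochore, 0.54 for cytokinesis and 0.69 for DNA replication. At least 2-fold above and below were 17 and 3 of the 52 mitosis genes, 15 and 9 of 136 other mitosis genes and 15 and 2 of 60 replication genes, against 16.1% and 15.0% of all rows. With a filter of 1 FPKM the passenger complex had a median of 0.53. Above and below were 12 and 3 of 52 mitosis genes, 10 and 10 of 132 other mitosis genes and 13 and 3 of 60 replication genes, against 15.5% and 19.6% of all rows. With a filter of 30 FPKM they were 1 and 0 of 8 mitosis genes, 0 and 1 of 7 other mitosis genes and 0 and 0 of 4 replication genes, against 15.6% and 22.3%. With a pseudocount of 5 FPKM they were 3 and 1 of 39 mitosis genes, 0 and 6 of 34 other mitosis genes and 1 and 0 of 26 replication genes, against 10.7% and 16.5%. Without centring they were 7 and 1 of 39 mitosis genes, 3 and 3 of 34 other mitosis genes and 4 and 0 of 26 replication genes, against 23.6% and 14.2%. In the authors' deposited table, an unadjusted p under 0.05 took in 4 mitosis genes, against 0 by its significance call. Sums with copies of PTTG1 and AURKA were added after seeing the data and left both within 2-fold, at 0.84 and -0.25. Depth limits the low members most. By the fitted steps, 1 step in ribosome profiling was worth 1.56 times the FPKM of 1 step in RNA sequencing. That ratio would change if the true step of either library were a multiple of the fitted one.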
